A study of Sus scrofa with 3 samples.

Results

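Potassium channel genes were taken as every gene of the count table whose symbol begins with KCN, followed by at least 1 further letter and a number, and 82 of the 34570 listed genes met this rule. The symbols cover the pore-forming subunits of potassium channels and the KCNAB, KCNE, KCNIP and KCNMB subunits that modify them. The kidneys came from Chinese Wuzhishan pigs, a miniature breed, 6 to 7 months old, and every group, the intact one included, received a diet high in fat and cholesterol. The 3 groups were castrated males with testosterone replacement (CMT), castrated males without it (CM) and intact males (IM). RNA of 3 pigs of a group was pooled before the library was made, so each group is 1 library and no spread between pigs can be estimated. The design text speaks of triplicates, but the table holds 1 column of counts per group. Dose and duration of the testosterone treatment and the time since castration are not given in the sources used here.

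Potassium channels let potassium leave or enter a cell along its gradient and set the voltage across the membrane. In the kidney they recycle potassium across the basolateral membrane, which keeps the sodium pump turning, and they secrete potassium into the urine from the thick ascending limb and the collecting duct. Inward rectifiers (KCNJ) and 2-pore-domain channels (KCNK) do much of this work in tubule cells, while many voltage-gated channels (KCNA to KCNV) are better known from nerve, heart and smooth muscle.

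Library totals were 13601475 counts in CMT, 18503537 in CM and 16459771 in IM, and a gene at 0 may have had up to 3 counts, which is 0.227 CPM (counts per 1000000 of the library, scaled as described under processing) in CMT, 0.159 in CM and 0.181 in IM. Ribosomal RNA took 2.14%, 1.73% and 2.03% of the counts in CMT, CM and IM. Genes that mark kidney were present in every pool, with 105591, 130566 and 94626 counts of UMOD (under a numbered identifier) in CMT, CM and IM and all 12 proximal tubule, 8 principal cell and 6 podocyte markers detected. Counts quoted below are not scaled, so the order of the pools is to be read from CPM or folds. Genes with a mean of at least 1 scaled CPM were compared, 15472 in all. A gene was called higher or lower where the exact 95% interval of its fold lay wholly beyond 2-fold. That interval covers counting error only, follows each fold in brackets, and says nothing of differences among pigs.

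Of the 82 potassium channel genes, 18 had no count in any pool, 37 had counts but lay below the filter, and 27 were compared. The fold itself was beyond 2 in at least 1 comparison for 8 of the 27, but for only 2 of them did the whole interval lie beyond it. The share of all compared genes with such a fold was not computed, so the 8 cannot be set against a background. KCNJ4 was the member called higher in CM than in IM, and KCNU1 was the member called higher in CMT than in CM and in CMT than in IM; no member was called lower. So 1 of 27 was called higher in each comparison, against a background of 1.20% of all compared genes for CM over IM, 1.84% for CMT over CM and 0.905% for CMT over IM. For calls of lower, the background was 1.52%, 1.11% and 0.595% in the same order, and 0 of 27 members were called in each. With 27 genes, 1 call or none is near what those shares give. The median log2 fold of the 27 was 0.08 in CM over IM, 0.03 in CMT over CM and 0.17 in CMT over IM, where the median of all compared genes was -0.01, -0.0043 and -0.01. CMT stands in 2 of the 3 comparisons, as do CM and IM, so the folds of a gene are not independent of each other.

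**Figure D1:**
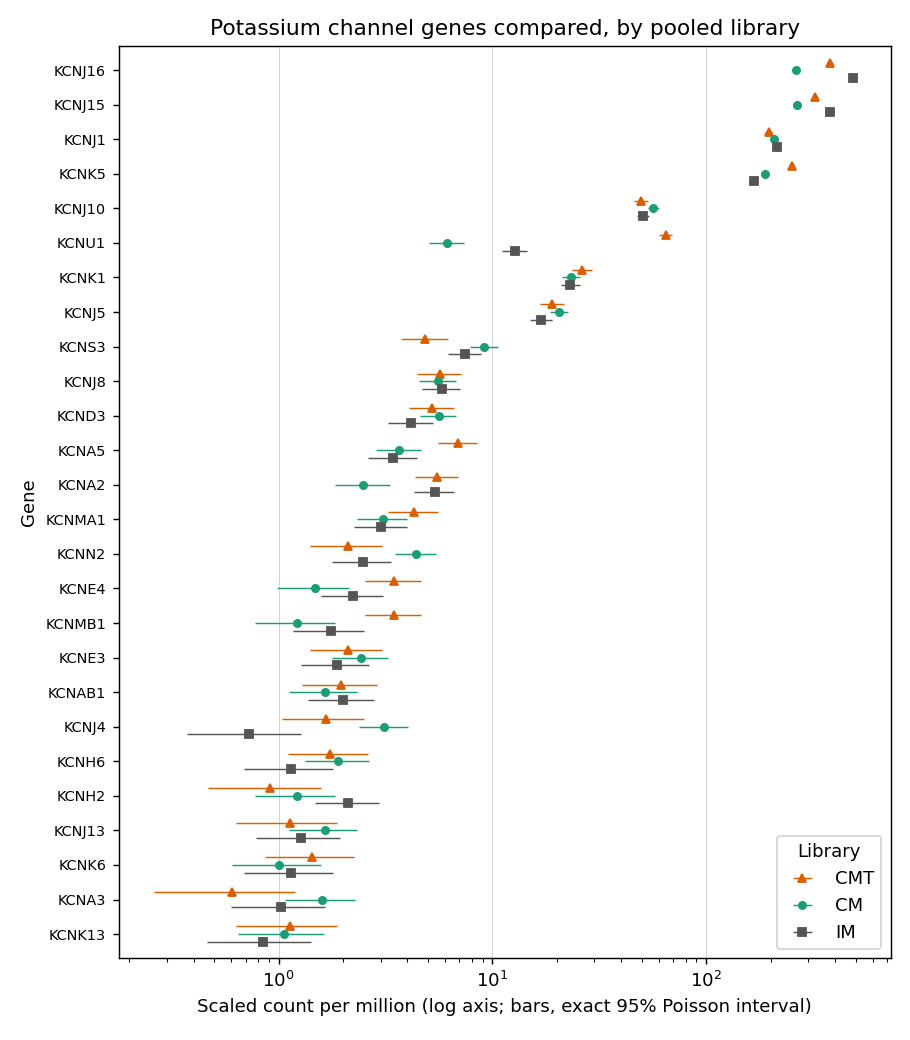
Scaled CPM (log axis) of 26 of the 27 compared potassium channel genes in the CMT, CM and IM pools, with the exact 95% Poisson interval of each count as bars; each point is 1 pooled library. KCNU1 stands at 64.7 CPM in CMT, far to the right of its 6.14 in CM and 12.7 in IM, while KCNJ1, KCNK1 and KCNJ8 have their 3 points close together.

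KCNU1 gave the clearest difference of the family. Its product, SLO3, is a large-conductance potassium channel opened by alkaline pH and by voltage, and is known in mouse as a channel of sperm. KCNU1 had 856 counts in CMT, against 116 in CM and 210 in IM. On the CPM scale these are 64.7 in CMT, 6.14 in CM and 12.7 in IM, so CMT was the high pool and CM the low one. CMT was 10.5-fold higher than CM (8.67 to 12.9) and 5.10-fold higher than IM (4.38 to 5.96). Ranked by the lower bound of the fold over all 15472 compared genes, KCNU1 was number 35 in CMT over CM and number 29 in CMT over IM. CM stood below IM at a fold of 0.484 (0.382 to 0.610), which did not pass the 2-fold rule.

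The known partner of SLO3 and markers of germ cells were set beside KCNU1. LRRC52, the auxiliary subunit that SLO3 has in mouse sperm, had 0 counts in every pool. A list of 17 germ cell and sperm genes, put together after the values of KCNU1 were seen, summed to 14.1 CPM in CMT, 18.1 in CM and 18.4 in IM, and 11, 11 and 10 of its genes were at 0. PRM1, PRM2, TNP1, ACRV1, AKAP4 and LDHC, which define late sperm cells, were at 0 in all 3 pools. TNP2, a transition protein of the same stage, was however detected, with 12 counts in CMT, 33 in CM and 7 in IM, and was not called; its high pool was CM. Most of the sum was CATSPER2, with 152 counts in CMT, 277 in CM and 259 in IM, or 11.5, 14.7 and 15.6 CPM. The 12 striated muscle markers summed to 478 CPM in CMT, 86.1 in CM and 235 in IM, and 4 were compared. ACTC1, the cardiac actin, had the order of KCNU1, with 416 CPM in CMT, 26.7 in CM and 156 in IM, and was called in all 3 comparisons. ACTA1, CKM and DES were not called and had their highest CPM in IM, with 38.8 CPM of DES in CMT, 36.2 in CM and 51.3 in IM. MB, the myoglobin gene, was at 0 in all pools, and 5 of the 12 were at 0 in CMT, 4 in CM and 5 in IM. The part of such cells in the KCNU1 values was not tested. The protein-coding neighbours of KCNU1 in the RefSeq gene order of assembly Sscrofa11.1 had profiles unlike each other. ZNF703 on one side had 125 counts in CMT, 107 in CM and 93 in IM. Its fold was 1.67 (1.28 to 2.18) in CMT over CM and 1.68 (1.28 to 2.22) in CMT over IM. CMT was thus its high pool, as for KCNU1, at a smaller size. UNC5D on the other side had 41 counts in CMT, 51 in CM and 69 in IM. Its fold was 1.15 (0.742 to 1.77) in CMT over CM and 0.743 (0.492 to 1.11) in CMT over IM. Neither neighbour was called in any comparison.

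**Figure D2:**
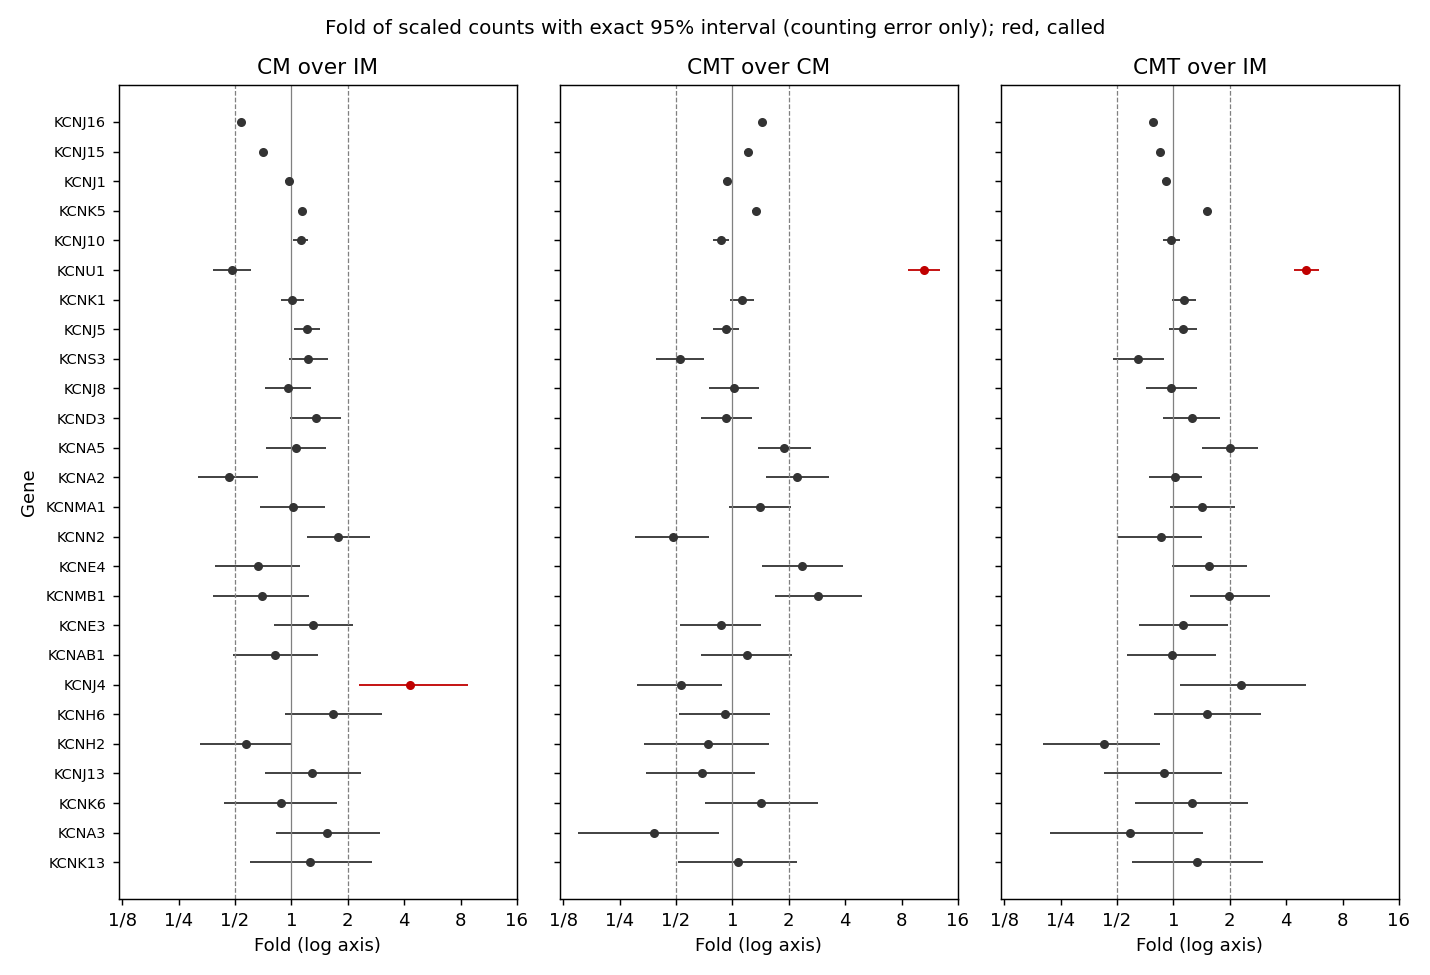
Fold of scaled counts of the same 26 potassium channel genes in CM over IM, CMT over CM and CMT over IM (log axes), with exact 95% intervals for counting error; dashed lines mark 2-fold in either direction and red marks genes called. KCNU1 at 10.5-fold and 5.10-fold and KCNJ4 at 4.31-fold are the red points, and KCNJ16 lies just inside the lower dashed line in CM over IM.

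The inward rectifiers, which pass potassium more readily into than out of the cell, held most of the family's counts. Their 13 genes took 71.0% of the counts of all 82 members in CMT (70.4 to 71.7), 75.1% in CM (74.5 to 75.7) and 82.1% in IM (81.6 to 82.6). Counts were not divided by transcript length, so such shares describe reads and not molecules. Summed over the class, CMT had 977 CPM, CM 828 CPM and IM 1158 CPM. CM was thus at 0.715 of IM (0.700 to 0.730), and CMT at 1.18 of CM (1.15 to 1.21) and 0.844 of IM (0.825 to 0.863).

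That difference came from KCNJ15 and KCNJ16. KCNJ16 codes for Kir5.1, a subunit that forms channels together with Kir4.1 (KCNJ10), a pair known from the distal nephron, or with Kir4.2 (KCNJ15), a pair known from the proximal tubule. KCNJ16 had 5038 counts in CMT, 4976 in CM and 8077 in IM, or 381, 263 and 488 CPM in that order. CM stood at 0.540 of IM (0.521 to 0.559), the nearest of all compared members to the 2-fold rule without passing it. CMT lay between the others, at 1.45 of CM (1.39 to 1.504) and 0.780 of IM (0.753 to 0.808). KCNJ15 had the same order at a smaller size, with 4272 counts in CMT, 5046 in CM and 6262 in IM, that is 323, 267 and 378 CPM. Its fold was 0.706 (0.680 to 0.733) in CM over IM, 1.21 (1.16 to 1.26) in CMT over CM and 0.853 (0.821 to 0.887) in CMT over IM. Without KCNJ15 and KCNJ16 the class summed to 274 CPM in CMT (265 to 283), 298 CPM in CM (290 to 306) and 292 CPM in IM (284 to 300).

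KCNJ10 shared the profile neither of KCNJ16, with which it can pair, nor of KCNJ15. It had 654 counts in CMT, 1070 in CM and 837 in IM, or 49.4, 56.6 and 50.6 CPM, so that CM was the high pool here, by 1.12-fold over IM (1.02 to 1.23). Within a library the ratio of counts of 2 genes depends on no scaling, and it was computed after the values had been seen. For each count of KCNJ10 there were 7.70 of KCNJ16 in CMT (7.10 to 8.37), 4.65 in CM (4.35 to 4.97) and 9.65 in IM (8.99 to 10.4). The same ratio for KCNJ15 was 6.53 in CMT (6.01 to 7.10), 4.72 in CM (4.41 to 5.04) and 7.48 in IM (6.96 to 8.05). These intervals of CM overlap neither those of CMT nor those of IM. The 12 proximal tubule markers summed to 16024 CPM in CMT, 16676 in CM and 16733 in IM, and all were detected. SLC22A6, an organic anion transporter, was called higher in CM than in IM. Of these 12, 8 had a log2 fold above 0 in CM over IM and 4 below. GATM, SLC5A12 and SLC5A2 had the order of KCNJ15 and KCNJ16, at 0.504, 0.688 and 0.669 in CM over IM, without a call. The 5 matched markers of the distal convoluted tubule summed to 204 CPM in CMT, 185 in CM and 220 in IM, and PVALB was called lower in CM and in CMT than in IM. Of these 5, 4 had a log2 fold below 0 in CM over IM and 1 above. TRPM6, CALB1 and PVALB had the order of KCNJ15 and KCNJ16, at 0.778, 0.802 and 0.196 in CM over IM. TRPV5 was also lowest in CM, at 0.787 of IM, but highest in CMT. KLHL3 was instead lowest in CMT, with 64.0 CPM in CMT, 69.7 in CM and 69.5 in IM. Of the 6 intercalated cell markers, which summed to 598 CPM in CMT, 878 in CM and 605 in IM, SLC26A4, the exchanger pendrin, had the order of KCNJ15 and KCNJ16. It had 396 counts in CMT, 197 in CM and 700 in IM, and was called lower in CM than in IM, at 0.247 (0.209 to 0.289), and higher in CMT than in CM, at 2.87 (2.41 to 3.42). ATP6V1B1, a proton pump subunit of the same cells, went the other way without a call, at 1.68 in CM over IM (1.63 to 1.73). The 7 loop of Henle markers summed to 9063 CPM in CMT, 7789 in CM and 6741 in IM, with TMEM207 called lower in CM than in IM, and none of the 8 principal cell markers was called. The part of these cells in the KCNJ15 and KCNJ16 values was not tested. In pooled tissue, fewer cells of a type and less RNA per cell cannot be told apart.

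**Figure D3:**
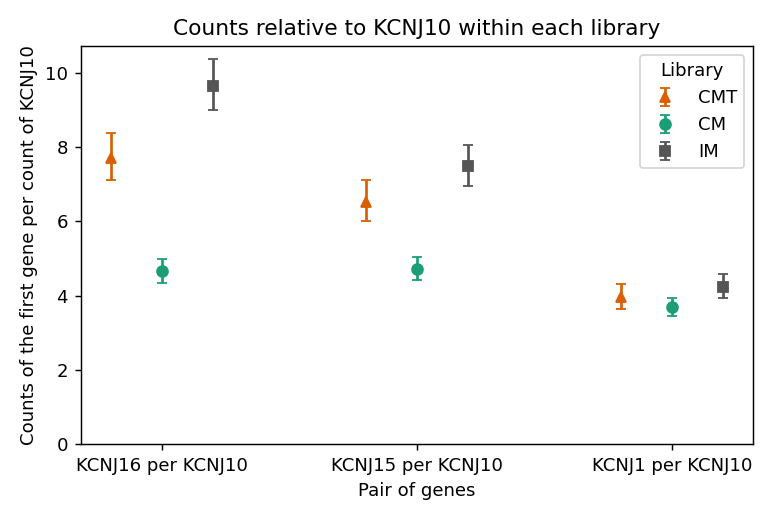
Counts of KCNJ16, KCNJ15 and KCNJ1 per count of KCNJ10 within the CMT, CM and IM libraries, with exact 95% intervals; a point is 1 pooled library. The CM points for KCNJ16 (4.65) and KCNJ15 (4.72) lie below those of both other pools, and the KCNJ1 points, between 3.68 and 4.24, lie closer together.

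KCNJ1 codes for ROMK, the channel of the apical membrane that secretes potassium in the thick ascending limb and collecting duct. It had 2588 counts in CMT, 3939 in CM and 3549 in IM, and its 196, 208 and 214 CPM made it one of the steadiest members. The fold was 0.972 (0.929 to 1.02) in CM over IM and 0.912 (0.867 to 0.960) in CMT over IM. Its ratio to KCNJ10 was 3.96 in CMT (3.63 to 4.32), 3.68 in CM (3.44 to 3.94) and 4.24 in IM (3.93 to 4.58). These 3 intervals overlap, those of CM and IM barely.

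KCNJ4, which codes for the classical inward rectifier Kir2.3, was the other called gene. It had 22 counts in CMT, 59 in CM and 12 in IM, or 1.66, 3.12 and 0.725 CPM. CM was 4.31-fold higher than IM (2.29 to 8.80), number 139 of the compared genes by its lower bound. With so few counts the call rests on a wide interval, and at 99% it reached from 1.94 to 11.2 and no longer passed. CMT stood between the others, at 0.533 of CM (0.311 to 0.882) and 2.29 times IM (1.09 to 5.08). The adjacent gene KDELR3, in the RefSeq gene order, had 55 counts in CMT, 85 in CM and 88 in IM.

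The remaining compared inward rectifiers differed little. KCNJ5, a G protein-gated channel best known from heart and adrenal cortex, had 252 counts in CMT, 388 in CM and 280 in IM, with a fold of 1.21 in CM over IM (1.04 to 1.42). Of the 8 adrenal markers, CYP17A1 had 0 counts in every pool, and CYP11A1 and CYP21A2 had at most 2. CHGB had most, with 22 in CMT, 36 in CM and 9 in IM. In CMT, CM and IM, STAR had 13, 3 and 12 counts and CHGA had 17, 1 and 6, both lowest in CM. HSD3B1 had 8, 17 and 14 and MC2R had 1, 6 and 3, both highest in CM. Together the adrenal markers summed to 4.68 CPM in CMT, 3.44 in CM and 2.78 in IM. KCNJ8 codes for Kir6.1, the pore of the ATP-sensitive channel of vascular muscle, and had 75 counts in CMT, 105 in CM and 96 in IM. Its 5.67, 5.55 and 5.80 CPM lay within counting error of each other. ABCC9, the sulfonylurea receptor that joins Kir6.1, had 55 counts in CMT, 66 in CM and 75 in IM. Scaled, these are 4.16, 3.49 and 4.53 CPM, and ABCC9 was not called. KCNJ13, which codes for Kir7.1, a channel of transporting epithelia, had 15, 31 and 21 counts in CMT, CM and IM. KCNJ11, the pore of the pancreatic ATP-sensitive channel, stayed below the filter with 9, 14 and 12.

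The 2-pore-domain channels, which carry background potassium currents, were dominated by KCNK5. KCNK5 codes for TASK-2, an alkali-sensitive channel of the proximal tubule that is linked to bicarbonate transport. It had 3338 counts in CMT, 3577 in CM and 2756 in IM, that is 252, 189 and 166 CPM, an order in which CMT was the high pool and IM the low one. CMT was 1.33 times CM (1.27 to 1.40) and 1.52 times IM (1.44 to 1.59), and CM was 1.14 times IM (1.08 to 1.20); none passed the 2-fold rule. KCNK1, the weakly conducting TWIK-1, had 349 counts in CMT, 442 in CM and 383 in IM, and all of its intervals included 1. KCNK6 (TWIK-2), with 19 counts in each pool, and KCNK13 (THIK-1), with 15 in CMT, 20 in CM and 14 in IM, lay just above the filter. The class summed to 281 CPM in CMT (272 to 290), 215 in CM (208 to 222) and 192 in IM (185 to 199). Without KCNK5 it summed to 29.1 CPM in CMT (26.3 to 32.1), 25.7 in CM (23.5 to 28.1) and 25.3 in IM (22.9 to 27.8).

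The calcium- and sodium-activated class differed in total only through KCNU1. That gene was counted in this class, although its channel is opened by alkaline pH and voltage, as stated above. All 11 genes together gave 75.6 CPM in CMT (70.9 to 80.4), 16.3 in CM (14.5 to 18.2) and 21.8 in IM (19.6 to 24.2). The other 10 genes gave 10.9 CPM in CMT (9.18 to 12.8), 10.2 in CM (8.77 to 11.7) and 9.12 in IM (7.72 to 10.7). KCNMA1, the pore of the BK channel that secretes potassium at high urine flow, had 57 counts in CMT, 58 in CM and 50 in IM. Scaled, these are 4.31, 3.07 and 3.02 CPM. KCNMB1, the BK subunit of smooth muscle, had 46 in CMT, 23 in CM and 29 in IM, with CMT at 2.86 times CM (1.70 to 4.94) and 1.98 times IM (1.22 to 3.28). In KCNN2, a small-conductance calcium-activated channel, CM was instead the high pool, with 28 counts in CMT, 83 in CM and 41 in IM and a fold of 0.482 (0.302 to 0.747) in CMT over CM. KCNMB2 had 0 counts in CMT, 1 in CM and 9 in IM, and KCNN4 had none.

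**Figure D4:**
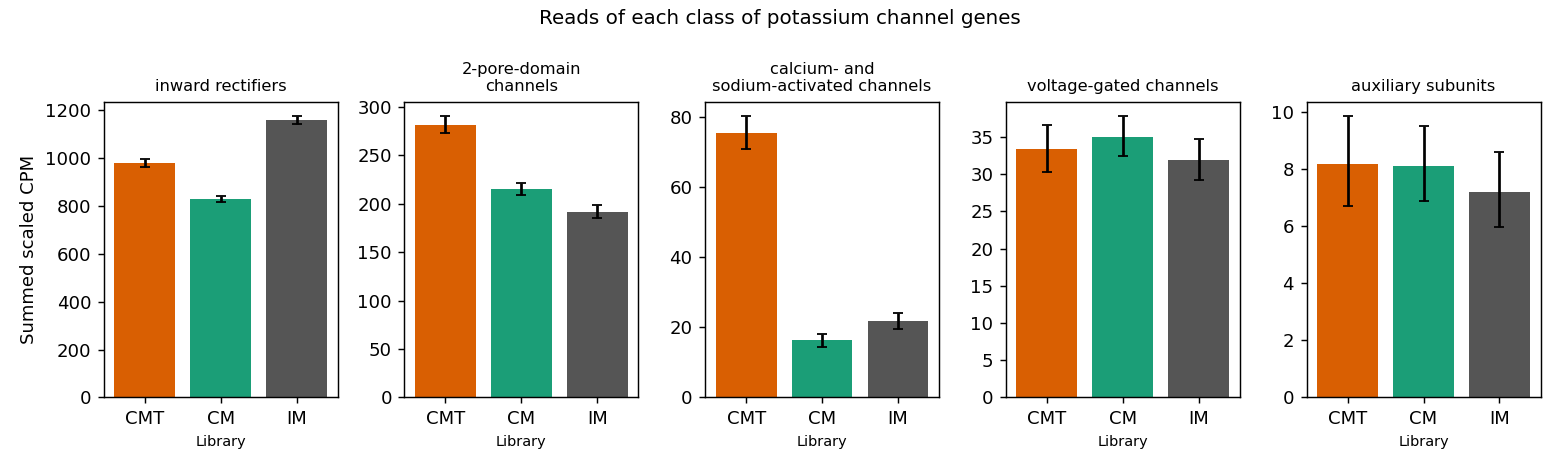
Summed scaled CPM of 5 classes of potassium channel genes in the CMT, CM and IM pools (bars from 0, with exact 95% Poisson intervals; each panel has its own scale). The CMT bar of the calcium- and sodium-activated class (75.6 CPM) stands above 16.3 in CM and 21.8 in IM. That class was drawn with KCNU1, and its other 10 genes gave 10.9, 10.2 and 9.12 CPM in CMT, CM and IM. The CM bar is lowest for the inward rectifiers.

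Voltage-gated channels open when the membrane depolarises, and they made up the largest class by genes, 35, of which 8 were compared. The class summed to 33.4 CPM in CMT (30.4 to 36.7), 35.1 in CM (32.5 to 37.8) and 31.9 in IM (29.2 to 34.7), intervals that overlap. KCNA2, a delayed rectifier of nerve, had 73 counts in CMT, 47 in CM and 89 in IM, so that CM was low. Its fold was 0.463 (0.318 to 0.666) in CM over IM, 2.22 (1.52 to 3.27) in CMT over CM and 1.03 (0.742 to 1.41) in CMT over IM. KCNA5, of cardiac and vascular muscle, had 91 counts in CMT, 69 in CM and 57 in IM, and here CMT was high, at 1.88 times CM (1.36 to 2.61). KCNS3, a silent subunit that modifies other channels, had 64 counts in CMT, 173 in CM and 123 in IM. It stood at 0.528 in CMT over CM (0.390 to 0.708) and 0.651 in CMT over IM (0.473 to 0.887). KCNH2, the cardiac channel hERG, had 12 counts in CMT, 23 in CM and 35 in IM, at 0.429 in CMT over IM (0.203 to 0.846). For KCND3 and KCNH6 every interval included 1.

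KCNA3, the voltage-gated channel of T lymphocytes, had 8 counts in CMT, 30 in CM and 17 in IM. Its fold was 0.381 in CMT over CM (0.151 to 0.850). The 10 matched leukocyte markers summed to 100 CPM in CMT, 132 in CM and 93.9 in IM, and 2 of the 9 compared were called lower in CMT than in CM. These were the T cell receptor subunit CD247, with 109 counts in CMT, 435 in CM and 164 in IM, and the B cell receptor subunit CD79A, with 8, 54 and 18. Of the 9, 6 had a log2 fold below 0 in CMT over CM and 3 above. CD3E, also of T cells, stood at 1.16 (0.839 to 1.60) in CMT over CM, and CD3D at 0.723 (0.484 to 1.07). The part of leukocytes in the KCNA3 values was not tested. For KCNMB1, KCNA5 and KCNE4, known from vascular muscle, the 9 smooth muscle, pericyte and renin cell markers summed to 533 CPM in CMT, 555 in CM and 628 in IM, with 0 of 9 called in any comparison. Within the list the log2 fold in CMT over CM ran from -0.35 to 1.03. At the upper end stood CNN1, a smooth muscle calponin, with 155 counts in CMT, 107 in CM and 189 in IM. Scaled, these are 11.7, 5.66 and 11.4 CPM. ACTA2, the smooth muscle actin, had 2788, 4744 and 4660 counts in CMT, CM and IM, or 211, 251 and 281 CPM. Their part was likewise not tested.

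Of the 10 auxiliary subunits of the KCNAB, KCNE and KCNIP groups (KCNMB genes were counted with the calcium-activated channels), KCNE4, KCNE3 and KCNAB1 were compared and none was called. KCNE4, which damps voltage-gated currents, had 46 counts in CMT, 28 in CM and 37 in IM, a fold of 2.35 (1.44 to 3.90) in CMT over CM. KCNE3, the partner that holds KCNQ1 channels open in epithelia, had 28 counts in CMT, 46 in CM and 31 in IM. Scaled, these are 2.12, 2.43 and 1.87 CPM. KCNAB1, a beta subunit of KCNA channels, had 26, 31 and 33 counts in CMT, CM and IM, or 1.96, 1.64 and 1.99 CPM. The class summed to 8.16 CPM in CMT (6.69 to 9.85), 8.09 in CM (6.86 to 9.48) and 7.19 in IM (5.95 to 8.60).

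Counting how many members had an interval that did not include 1 gave shares like those of the whole table. In CM over IM, 5 of 27 lay above 1 and 4 below, where 21.2% and 23.2% of all compared genes did. In CMT over CM, 8 lay above and 6 below, against 21.3% and 20.4% of all. In CMT over IM, 5 lay above and 5 below, against 17.8% and 17.5%. The count of 8 of 27 in CMT over CM held KCNJ16, KCNJ15, KCNK5, KCNU1, KCNA5, KCNA2, KCNE4 and KCNMB1.

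Most potassium channel genes were rare or absent in these libraries. Without a count in any pool on their own rows were KCNA1, KCNA4, KCNA6 and KCNA10, KCNE2, KCNG2, KCNH5 and KCNH7, KCNJ6, KCNK7, KCNK9, KCNK15 and KCNK18, KCNMB3, KCNN4, KCNS1 and KCNS2, and KCNV2. Of the 37 genes with counts but below the filter, 29 had at most 10 counts in every pool. The nearest below the filter were KCNIP3, at a mean of 0.819 CPM, and KCND1, at 0.728 CPM. The nearest above were KCNK13 (1.01 CPM) and KCNA3 (1.07 CPM). KCNIP3, a calcium-binding subunit and transcriptional repressor, had 6 counts in CMT, 31 in CM and 6 in IM. KCND1, a channel of the transient outward current, had 13 counts in CMT, 17 in CM and 5 in IM. KCNE1L, which has no entry under that symbol in the RefSeq table used here, had 6 counts in CM and none in CMT or IM. KCNJ3, a G protein-gated inward rectifier, had 3 counts in CMT, 12 in CM and 16 in IM. KCNT1, a sodium-activated channel, had 4 counts in CMT, 13 in CM and 14 in IM. Other channels were barely seen: KCND2 had 5, 9 and 3 counts in CMT, CM and IM, KCNT2 had 0, 3 and 3, KCNAB2 had 0, 2 and 4, and KCNIP1 had 0, 2 and 2. The stretch-activated channel KCNK2 and its relative KCNK10 each had 1 count in IM and none elsewhere. At these depths a count of 0 does not show that a gene is silent.

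Some channels are listed under other names and so are no members by the rule. RefSeq gives a KCN symbol to 14 numbered rows and to 2 rows under an older symbol, and 4 of these were compared. KCNJ2 (listed as IRK1) codes for the strong inward rectifier Kir2.1. It had 194 counts in CMT, 103 in CM and 223 in IM, or 14.7, 5.45 and 13.5 CPM. CMT was called higher than CM, at 2.69-fold (2.11 to 3.45), and CM stood at 0.405 of IM (0.317 to 0.513), just short of a call. KCNE1, the partner of KCNQ1 in the slow cardiac current and in the proximal tubule, had 65 counts in CMT, 35 in CM and 97 in IM. It was called lower in CM than in IM, 3.16-fold (2.13 to 4.80), and CMT stood at 2.65 times CM (1.73 to 4.12). In both of these rows CM was the low pool, and the interval of CMT over IM included 1. KCNIP2 had 59 counts in CMT, 58 in CM and 45 in IM, and KCNK3, on a row typed as miscRNA, had 20, 26 and 35; neither was called. In 9 of the numbered rows the symbol is already that of a member, so the reads of those genes are split over 2 rows, none of which held more than 7 counts among the numbered ones. This holds for KCNK7, whose numbered row had 2 counts in CMT, 1 in CM and 2 in IM, and for KCNK9, with 2 in IM, although both are at 0 on the rows that carry their symbols. KCNQ1 and KCNMB4 are not analysed here.

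Genes that work beside these channels differed little. Of 24 partners of potassium channels, 22 were matched and 15 compared, and none was called in any comparison. Their median log2 fold was -0.11 in CM over IM, 0.02 in CMT over CM and -0.0028 in CMT over IM. The partners with the highest CPM were SLC9A3R1, the scaffold NHERF1, with 872 CPM in CMT, 664 in CM and 867 in IM, and the calmodulin genes CALM3 (332, 326 and 353 CPM) and CALM2 (149, 168 and 174 CPM). Of 36 genes of renal potassium and sodium handling, 34 were matched and 33 compared, and 0 were called in any comparison, with median log2 folds of 0.0044, 0.0004 and 0.05 in CM over IM, CMT over CM and CMT over IM. ATP1B1, the beta subunit of the sodium pump that the basolateral channels serve, had 14798 counts in CMT, 21863 in CM and 21844 in IM. Its fold was 0.877 (0.860 to 0.893) in CM over IM. Over the 33 compared handling genes the log2 fold ran from -0.42 to 0.33 in CM over IM, from -0.45 to 0.37 in CMT over CM and from -0.85 to 0.48 in CMT over IM.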

How the data were processed

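The authors deposited 1 table of raw counts per gene, with 1 column for each pool. Per the labels' protocols, equal amounts of RNA from 3 pigs went into each pool, and libraries were made with an Ion Torrent total RNA kit, whereas the design text names an Illumina sequencer. FastQC is named in the submitters' processing notes. The aligner, counting program, strand setting, build and annotation are not given in the sources used here. Reads shared by similar, overlapping or antisense genes could therefore not be told apart. 1 unnamed column with 4 values was not used.

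Counts were scaled by TMM-adjusted library size (edgeR 4.0.16, R 4.3.3; factors 0.973 in CMT, 1.02 in CM and 1.01 in IM); edgeR was used for nothing else, as 1 library per group allows no test. Genes with a mean of at least 1 CPM were compared. Folds are ratios of scaled counts, and their 95% intervals are exact (Clopper-Pearson, scipy 1.17.1). A call needs the interval beyond 2-fold. Log2 folds, used for medians, have a prior count of 2. Sums carry exact Poisson intervals. PCR copies are not independent molecules, so these intervals are minimum errors. The procedure was run on simulated counts with counting error only (Poisson), which the intervals assume. That run held no differences among pigs and cannot show how calls fare with them. Alternatives were other scalings (DESeq2 1.42.0 size factors among them), filters, thresholds, intervals and prior counts, and wider membership. Named are the called members, the 10 with the highest mean CPM, a set of renal channels and those nearest the filter and the 2-fold rule; other members were named after their values were seen. Values of 1 compared member and 1 handling gene are counted in the totals but not reported here. Members and lists were chosen with earlier results of these data known. RefSeq (Sscrofa11.1) served for names and gene order and matched 80 of the 82 symbols.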

Additional observations from a re-analysis of the deposited data

How the results depend on the processing

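The calls of KCNU1 in both comparisons with CMT held under each alternative run. The call of KCNJ4 in CM over IM was lost at a 99% interval and under a filter at a mean of 5 CPM, where it was no longer compared, so members called higher there numbered 0. At a 1.5-fold threshold, 3 members of 27 were called lower in CM than in IM (KCNA2, KCNJ16 and KCNU1). Another 1.5-fold result was 3 of 27 called higher in CMT than in CM (KCNA2, KCNMB1 and KCNU1). The shares of all 15472 compared genes called so at 1.5-fold were 3.42% and 3.68%. Adding the numbered rows gave 1 member lower in CM than in IM (KCNE1); adding the older symbols too, chosen after seeing the data, kept that at 1 and gave 2 higher in CMT than in CM (KCNJ2 and KCNU1). Scaling by library size alone moved the sum of all members to 1339 CPM in CMT and 1126 in CM, and of inward rectifiers to 951 and 846. It moved the CMT over CM folds of KCNJ15, KCNJ16 and KCNK5 to 1.15, 1.38 and 1.27. No called gene reversed its direction. The filter at a mean of 1 CPM left 55 members uncompared; without a filter, the calls of members were as many in each comparison. No paired analysis was possible because each group is 1 library.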
